A study of Mus musculus with 7 samples.

Results

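The genes compared here build and drive the mitotic spindle, hold and move chromosomes, or carry the kinesin name. They were chosen by symbol, with earlier results of these data known, as kinesins, CENP centromere proteins, BUB checkpoint proteins, Aurora kinases, Polo-like kinases, A and B cyclins, condensin subunits, the Ndc80 complex, and Cdc20, Cdk1, Birc5, Top2a, Mki67, Tpx2 and Incenp. This gave 75 of the 9999 genes named in the deposited data, each read through whichever of its probe sets had the highest mean signal. Of the 75, 59 were listed by family as genes that act in or mark cell division, called division genes here. The other 16 were listed as kinesins known mainly for transport, microtubule ends or cilia. The label of mitosis is used for those 59 only, and a gene of either list may also have roles of the other. Another 21 mouse genes that fit the names, among them Ccnb1, Plk3 and Kif15, were not analysed here.

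RNA came from untreated RAW264.7 cells in serum-containing medium. RAW264.7 is an established mouse line with macrophage traits, from a tumour that a leukaemia virus induced. There were 4 arrays of cells described as a Gfi1 knockout and named RAW GfI1-1, and 3 arrays of wild-type cells named RAW WT, all at T0. Gfi1 is a zinc finger repressor of transcription in blood cells. The labels call the replicates biological. They give neither the knockout method nor whether arrays came from 1 clone, or from separate clones or cultures, and the p-values here cover just the scatter among these 7 arrays, part or all of which may be technical. The only Gfi1 probe set was higher, not lower, in knockout, at 4.93 and 5.02 in replicates 1 and 2 and 3.97 and 3.97 in replicates 3 and 4, against 2.66, 2.85 and 2.98 in wild type (log2 signal). A probe set outside an edited stretch can still read RNA, so this value does not settle whether the gene was lost. The Gfi1 wild-type mean of 2.83 lay among the lowest 5% of genes and may be background. The knockout arrays fell into close pairs, replicates 1 with 2 and 3 with 4, which no label explains. Replicates 1 and 2 are called the first pair and 3 and 4 the second. Over all genes the SD of log2 differences was 0.14 and 0.12 within the pairs, 0.50 to 0.51 between them, and 0.11 to 0.17 among wild-type arrays. The pairs are therefore shown apart. Of 10 macrophage markers 9 were measured, all above the 40th percentile of genes, of which 6 fell and 0 rose over the 7 arrays (66.7% lower, against 21.6% of all genes). By pair, 6 fell and 2 rose in the first (66.7% and 22.2%, against 34.1% of all genes each way). In the second, 8 fell and 0 rose (88.9% and 0%, against 29.3% and 27.7% of all genes). The summed linear signal of the 9 markers was 19883 to 21318 in knockout and 28723 to 29165 in wild type, and Lyz2, lysozyme, was the brightest. No marker of neutrophils, B cells, T cells or epithelium was among the named genes, and the 1 fibroblast and 2 erythroid markers measured were dim (mean under the 40th percentile of genes). The part of other cell types in the results was not tested.

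A cell enters mitosis when Cdk1, bound to cyclin A and then cyclin B, becomes active, and Aurora and Polo-like kinases add to its action. Condensin and topoisomerase II fold the chromosomes, kinesins build the spindle, and the kinetochore, assembled on CENP proteins at the centromere, ties chromosomes to microtubules through the Ndc80 complex. The BUB proteins hold back Cdc20 and the anaphase promoting complex until all chromosomes are attached. Most of these genes are transcribed late in the cell cycle, so in bulk RNA fewer dividing cells and less RNA in each dividing cell cannot be told apart.

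Promoters of late cell-cycle genes in human and mouse often carry a CHR element (cell cycle genes homology region), which MuvB-containing complexes bind, near CCAAT boxes, which NF-Y binds. In the RefSeq promoter table (build GRCm38.p6, 250 bases before to 50 after each start) 64 of the 75 genes had an entry, and a gene with several starts was counted once, as holding a motif if any window did. The letters TTTGAA or TTCGAA, searched on both strands, stood in 32 of 53 promoters of the division genes (60.4%) and in 1 of 11 of the other kinesins (9.09%), against 16.8% of the 8192 named genes with an entry and 21.7% of all 27025 genes of the table. CCAAT, on both strands, stood in 34 of the 53 (64.2%) and in 43.5% of the named genes. These motifs share no letters in the windows shown. The 250 bases before the start are shown for 5 of the division genes that passed the test over all 7 arrays and hold a CHR match there, in lower case with both motifs in capitals (TTCAAA and ATTGG are the other strand's TTTGAA and CCAAT), read 5′ to 3′ on the gene's strand.
Kif11, chr19:37376132-37376381, plus strand: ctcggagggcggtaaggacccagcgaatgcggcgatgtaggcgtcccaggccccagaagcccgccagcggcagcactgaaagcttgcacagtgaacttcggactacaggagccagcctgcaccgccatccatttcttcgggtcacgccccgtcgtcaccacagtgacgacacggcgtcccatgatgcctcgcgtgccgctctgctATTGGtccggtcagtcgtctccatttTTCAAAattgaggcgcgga
Ncapg2, chr12:116405186-116405435, plus strand: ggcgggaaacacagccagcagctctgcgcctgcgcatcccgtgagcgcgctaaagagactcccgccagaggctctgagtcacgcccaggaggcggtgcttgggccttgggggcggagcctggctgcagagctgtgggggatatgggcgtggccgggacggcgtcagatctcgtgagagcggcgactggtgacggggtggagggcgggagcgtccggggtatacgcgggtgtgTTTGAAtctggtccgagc
Ncapd2, chr6:125191587-125191836, minus strand: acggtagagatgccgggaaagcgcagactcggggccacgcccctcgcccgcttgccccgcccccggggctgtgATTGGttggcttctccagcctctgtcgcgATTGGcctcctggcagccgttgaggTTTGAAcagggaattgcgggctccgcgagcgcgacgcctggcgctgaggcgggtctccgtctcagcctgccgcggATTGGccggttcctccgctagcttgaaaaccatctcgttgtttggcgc
Top2a, chr11:99024190-99024439, minus strand: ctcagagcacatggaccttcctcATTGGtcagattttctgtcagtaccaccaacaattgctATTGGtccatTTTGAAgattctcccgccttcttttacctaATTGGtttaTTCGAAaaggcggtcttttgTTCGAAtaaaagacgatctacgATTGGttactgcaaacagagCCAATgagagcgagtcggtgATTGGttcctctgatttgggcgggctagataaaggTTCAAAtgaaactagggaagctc
Cenpm, chr15:82244337-82244586, minus strand: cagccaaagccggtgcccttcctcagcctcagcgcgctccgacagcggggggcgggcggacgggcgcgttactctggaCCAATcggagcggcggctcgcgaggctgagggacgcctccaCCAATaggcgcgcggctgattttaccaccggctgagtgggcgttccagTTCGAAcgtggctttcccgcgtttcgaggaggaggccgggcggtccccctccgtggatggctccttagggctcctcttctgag
In Kif11 and Ncapg2 the CHR letters began 19 and 18 bases before the start, and a CCAAT box of Kif11 began 45 bases before it. Ncapg2 had no CCAAT in the window shown. Top2a held 4 CHR matches and 6 CCAAT boxes, the densest of the 5. Among the 53 division genes, the median log2 difference of knockout replicates 1 and 2 from wild type was -0.63 for the 32 with a CHR match and -0.20 for the other 21, and 27 and 10 of them passed the test downwards, against 34.1% of all genes. In replicates 3 and 4 the medians were 0.00 and 0.13, and 9 and 5 of them passed downwards, against 29.3% of all genes. Split by CCAAT, the medians in replicates 1 and 2 were -0.51 for the 34 with a match and -0.43 for the other 19. Of these, 27 and 10 were lower. In replicates 3 and 4 the medians were -0.05 and 0.15, with 10 and 4 lower. A match is a string of letters and not a measured binding site.

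Taken as 1 group of 4, the knockout arrays gave few calls among these genes. By limma, with adjustment over all 9999 genes and a threshold of 0.05, 6 of the 75 rose and 13 fell, which is 25.3%, against 43.1% of all genes (21.5% rose and 21.6% fell). The median log2 difference, knockout minus wild type, was -0.20, against -0.01 over all genes. The knockout arrays all lay below the wild-type arrays for 28 of the 75 and all above them for 8, against 27.9% and 26.5% of all genes (54.5% together). The spread among knockout arrays was wide here, with a median SD of 0.31 over the 75 genes, against 0.15 for all genes, and of 0.07 in wild type for both. The pooled calls rest on few arrays. Without wild-type replicate 1, 2 or 3 the count was 8 each time, and 11 of the 19 calls were lost whichever of these was left out, namely Birc5, Plk2, Cenpm, Cenpo, Cenps, Cenpu, Ncapd2, Ncapg2, Top2a, Kif11 and Kif1b (adjusted p from 0.0584 to 0.146). Without knockout replicate 1 or 2 the count was 12, with 9 and 10 of the 19 lost.

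The pairs of knockout arrays stood on different levels. In replicates 1 and 2, 50 of the 75 genes passed the test downwards and 7 upwards, against 34.1% of all genes in each direction (68.1% together). In replicates 3 and 4, 19 passed downwards and 27 upwards, against 29.3% and 27.7% of all genes (57% together). Both first-pair arrays lay below wild type for 56 genes and above it for 9 (39.7% and 39.5% of all genes, 79.1% together), and both second-pair arrays below it for 28 and above it for 31 (38% and 35.7% of all genes, 73.7% together). By at least 1.5-fold and past the test, 30 fell and 6 rose in replicates 1 and 2 (15.2% and 14.5% of all genes), and 3 fell and 5 rose in replicates 3 and 4 (9.45% and 8.15% of all genes). Both pairs, each with n = 2, were set against the same 3 wild-type arrays, so their results are not independent. Set beside each other, both arrays of replicates 1 and 2 lay below both of replicates 3 and 4 for 63 of the 75 genes and above them for 7, against 37.1% and 42.7% of all genes, and no test of this difference was made because no label separates the pairs. The median difference from wild type was -0.48, -0.43, 0.07 and 0.07 in knockout replicates 1 to 4, and between 0.01 and -0.01 for all genes.

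**Figure D1:**
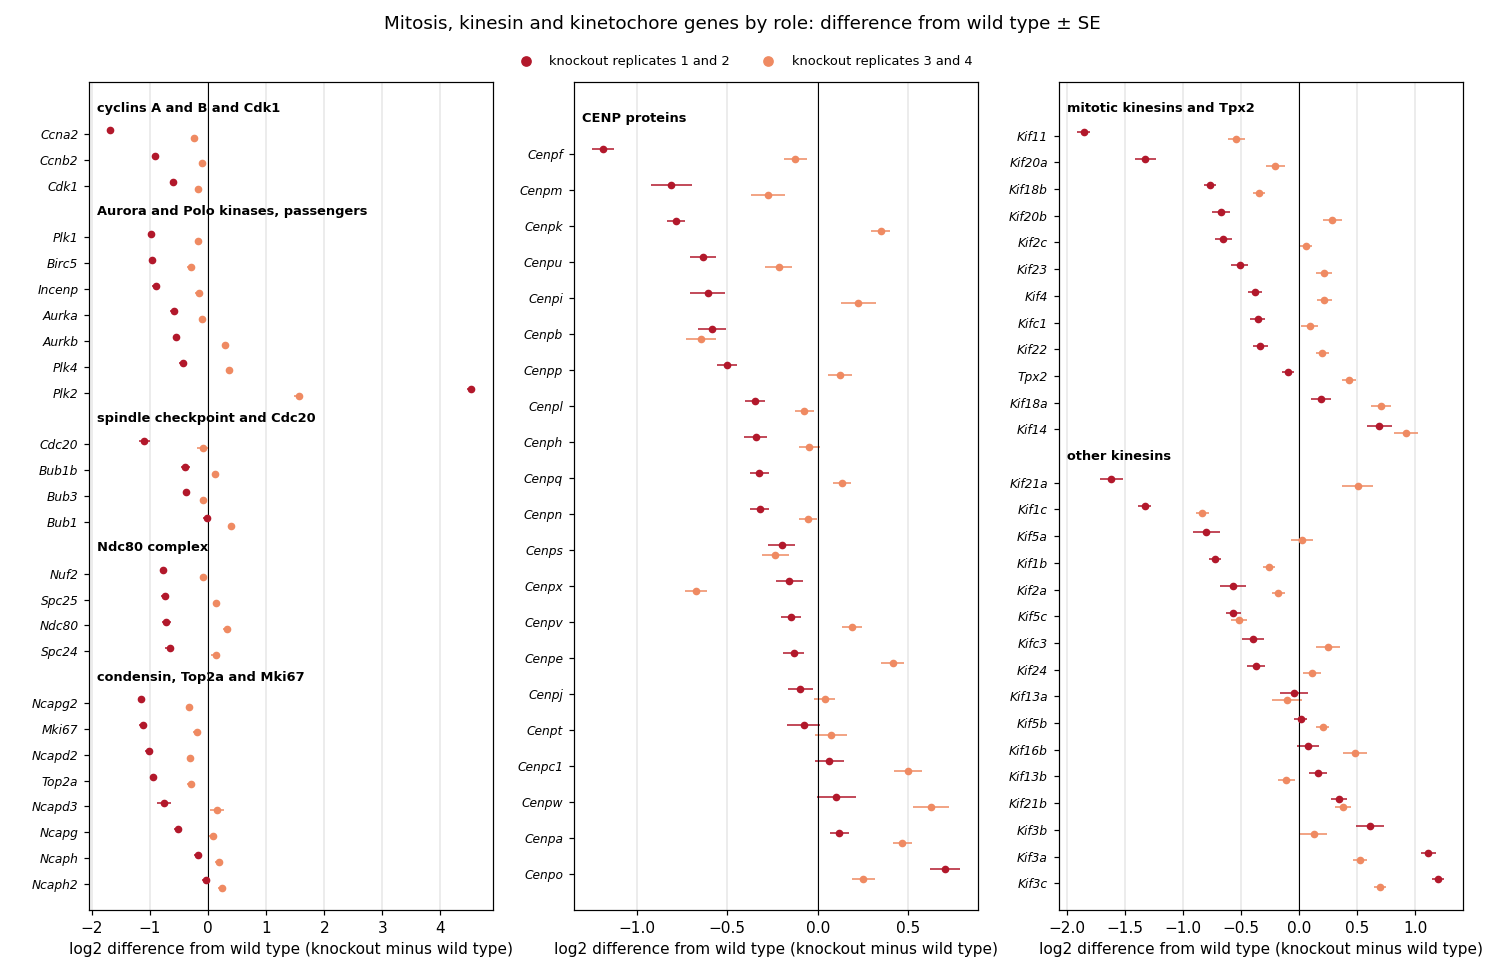
Log2 difference from the wild-type mean (knockout minus wild type, horizontal axis; the scale differs between panels) of all 75 genes by role, for knockout replicates 1 and 2 (dark red) and replicates 3 and 4 (orange), with bars for the SE of each limma fit. Most dark points lie left of 0 and left of their orange partner, while Plk2 stands at 4.52 and 1.56.

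The 75 genes split by what each pair did. In 17 both pairs fell (22.7%, against 21.7% of all genes), among them Ccna2, Cdk1, Birc5, Plk1, Mki67, Top2a and Kif11. In 24 replicates 1 and 2 fell while replicates 3 and 4 did not pass (32%, against 10.6% of all genes), among them Ccnb2, Cdc20, Aurka and Nuf2. In 9, which were Aurkb, Plk4, Ndc80, Cenpk, Kif20b, Kif23, Kif4, Kif22 and Kif21a, replicates 1 and 2 fell and replicates 3 and 4 rose (12%, against 1.82% of all genes). In 12, which included Cenpa, Cenpe, Bub1 and Tpx2, only the rise in replicates 3 and 4 passed (16%, against 5.25% of all genes), and in 6 both pairs rose (8%, against 20.6% of all genes). For 17 genes the first pair lay wholly below and the second wholly above the wild-type arrays (22.7%, against 4.28% of all genes).

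The cyclins and their kinase were low in replicates 1 and 2. Ccna2, which starts Cdk1 activity before mitosis, had a log2 signal of 7.57 and 7.54 in knockout replicates 1 and 2, 8.97 and 9.0 in replicates 3 and 4, and 9.28, 9.21 and 9.22 in wild type. Both pairs lay below wild type without overlap, the first by far the more, with a difference of -1.68 (SE 0.05, adjusted p = 2.24e-06) in replicates 1 and 2, a 3.20-fold fall, and -0.25 (SE 0.05, adjusted p = 0.00662) in replicates 3 and 4. Its pooled difference was -0.96 (SE 0.41, adjusted p = 0.0954), so the gene did not pass with the pairs joined. Ccnb2, a B cyclin, stood at 8.44 and 8.46 in knockout replicates 1 and 2, 9.26 and 9.24 in replicates 3 and 4, and 9.42, 9.34 and 9.30 in wild type. It fell in replicates 1 and 2 by 0.91 on the log2 scale (adjusted p = 2.98e-05), while the difference of -0.10 in replicates 3 and 4 did not pass (adjusted p = 0.162). Cdk1, the mitotic kinase itself, measured 8.78 and 8.89 in knockout replicates 1 and 2, 9.25 and 9.28 in replicates 3 and 4, and 9.46, 9.45 and 9.40 in wild type, and differed by -0.60 (SE 0.06, adjusted p = 1.69e-04) in the first pair and -0.17 (SE 0.05, adjusted p = 0.0288) in the second.

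Of the 7 kinase and passenger genes, 6 fell and 1 rose in replicates 1 and 2 (85.7% and 14.3%, against 34.1% of all genes each way). In replicates 3 and 4, 2 fell and 3 rose (28.6% and 42.9%, against 29.3% and 27.7% of all genes). Plk1, which drives spindle assembly and mitotic exit, had 6.91 and 6.89 in knockout replicates 1 and 2, 7.71 and 7.71 in replicates 3 and 4, and 7.87, 7.91 and 7.85 in wild type, with differences of -0.98 (SE 0.05, adjusted p = 1.28e-05) and -0.17 (SE 0.05, adjusted p = 0.0260). Birc5, the survivin subunit of the chromosomal passenger complex, measured 8.09 and 8.03 in knockout replicates 1 and 2, 8.76 and 8.69 in replicates 3 and 4, and 8.99, 9.06 and 9.03 in wild type. It was the 1 gene of the 7 that fell in the pooled fit, with a difference of -0.63 (SE 0.20, adjusted p = 0.0363). Incenp, the scaffold of that complex, stood at 9.74 and 9.73 in replicates 1 and 2 and 10.43 and 10.53 in replicates 3 and 4, against 10.74, 10.61 and 10.56 in wild type, and all 4 knockout arrays were below wild type, although only the first pair passed. Aurkb, the kinase of the complex, went opposite ways, at 7.05 and 7.09 in knockout replicates 1 and 2, 7.88 and 7.95 in replicates 3 and 4, and 7.61, 7.63 and 7.64 in wild type, with -0.56 (SE 0.05, adjusted p = 1.21e-04) in the first pair and 0.28 (SE 0.05, adjusted p = 0.00354) in the second. Plk4, which controls centriole duplication, did likewise on the chosen probe set, with -0.43 and 0.37 (adjusted p = 8.17e-04 and 0.00313). Its other 2 probe sets, not dim, stood at -0.02 and -0.15 in the first pair and 0.34 and 0.39 in the second. The Plk4 fall thus rests mainly on 1 probe set. Aurka, needed at spindle poles, differed by -0.58 in replicates 1 and 2 (adjusted p = 5.24e-04) and by -0.10 in replicates 3 and 4 (adjusted p = 0.149).

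Plk2 went up in every knockout array. It is a kinase known for its induction by stress and by neuronal activity. Its log2 signal was 10.12 and 10.13 in knockout replicates 1 and 2, 7.21 and 7.10 in replicates 3 and 4, and 5.68, 5.51 and 5.61 in wild type. No arrays overlapped between the groups, and the pooled rise was 3.04 (SE 0.85, adjusted p = 0.0245). The rise was 4.52 in the first pair and 1.56 in the second on the log2 scale.

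**Figure D2:**
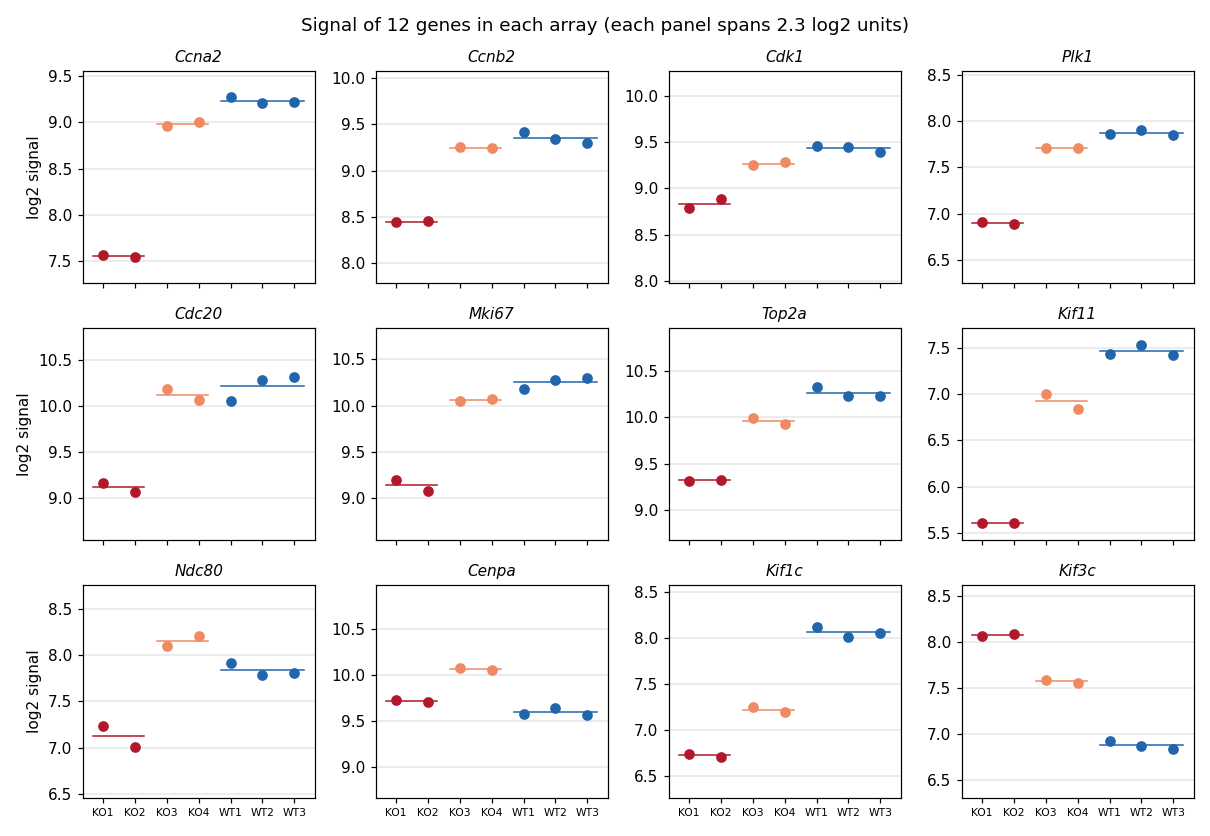
Log2 signal (vertical axis, each panel spanning 2.3 units) of 12 genes in knockout replicates 1 and 2 (dark red), knockout replicates 3 and 4 (orange) and wild-type replicates 1 to 3 (blue), with lines for the means. Ccna2, Plk1 and Kif11 were lowest in knockout replicates 1 and 2, Ndc80 and Cenpa were highest in knockout replicates 3 and 4, and Kif1c and Kif3c stepped in 1 direction over both pairs.

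The checkpoint genes were Bub1, Bub1b, Bub3 and Cdc20. Cdc20, the activator of the anaphase promoting complex, had 9.17 and 9.06 in knockout replicates 1 and 2, 10.18 and 10.06 in replicates 3 and 4, and 10.05, 10.28 and 10.32 in wild type. The first pair lay wholly below the wild-type arrays, while the second pair overlapped wild type, and the differences were -1.10 (SE 0.09, adjusted p = 1.03e-04) and -0.09 (SE 0.09, adjusted p = 0.427). Bub3 and Bub1b, which form the checkpoint signal, fell in replicates 1 and 2 by 0.38 and 0.39 on the log2 scale (adjusted p = 6.98e-04 and 0.00301). Bub1, the checkpoint kinase, did not pass there, at -0.02 (adjusted p = 0.723), and rose in replicates 3 and 4 by 0.40 (SE 0.05, adjusted p = 0.00118). A second, dim probe set of Bub1 stood at -1.67 in replicates 1 and 2 and -0.37 in replicates 3 and 4.

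All 4 genes of the Ndc80 complex, the microtubule grip of the kinetochore, fell in replicates 1 and 2, against 34.1% of all genes. The falls ran from -0.66 in Spc24 to -0.78 in Nuf2. Ndc80 itself measured 7.24 and 7.00 in knockout replicates 1 and 2, 8.10 and 8.21 in replicates 3 and 4, and 7.91, 7.79 and 7.81 in wild type, so the first pair was below and the second above every wild-type array, with differences of -0.72 (SE 0.08, adjusted p = 4.22e-04) and 0.32 (SE 0.06, adjusted p = 0.00591). Nuf2, its partner, stood at 6.97 and 6.97 in knockout replicates 1 and 2, 7.68 and 7.64 in replicates 3 and 4, and 7.72, 7.77 and 7.75 in wild type. It was below wild type in all knockout arrays, by too little in replicates 3 and 4 to pass, a difference of -0.08 (SE 0.05, adjusted p = 0.192). Spc24 and Spc25, at the inner end of the complex, had differences of 0.13 and 0.14 in replicates 3 and 4, which did not pass (adjusted p = 0.191 and 0.0769).

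The 21 CENP genes were more mixed, with 11 lower and 1 higher in replicates 1 and 2 (52.4% and 4.76%, against 34.1% of all genes each way). In replicates 3 and 4, 5 were lower and 7 higher (23.8% and 33.3%, against 29.3% and 27.7% of all genes). Cenpf, a large protein of the outer kinetochore, fell most in the first pair, with 6.20 and 6.30 in knockout replicates 1 and 2, 7.38 and 7.25 in replicates 3 and 4, and 7.46, 7.48 and 7.38 in wild type, a difference of -1.19 (SE 0.06, adjusted p = 1.28e-05). Its second pair lay below wild type by little and did not pass (adjusted p = 0.141). Over the 21 genes the second pair lay wholly below wild type for 8 and wholly above for 9 (38.1% and 42.9%, against 38% and 35.7% of all genes). Cenpa, the histone H3 variant that marks centromeres, lay above wild type in all knockout arrays, at 9.73 and 9.70 in knockout replicates 1 and 2, 10.08 and 10.06 in replicates 3 and 4, and 9.58, 9.65 and 9.57 in wild type, with 0.12 (SE 0.05, adjusted p = 0.0889) and 0.47 (SE 0.05, adjusted p = 5.12e-04). Cenpe, a kinetochore kinesin, and Cenpw, which binds with Cenpt near centromeric DNA, rose in replicates 3 and 4 by 0.41 and 0.63 on the log2 scale (adjusted p = 0.00189 and 0.00224). A second, dim probe set of Cenpw went the other way, at -1.43 in replicates 3 and 4 and -2.63 in replicates 1 and 2. Cenpk, of the inner kinetochore network, fell by 0.78 in the first pair and rose by 0.35 in the second (adjusted p = 3.05e-05 and 0.00183).

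Of the CENP genes, 5 passed in the pooled fit (23.8%, against 43.1% of all genes). Cenpb, which binds a repeat of centromeric DNA, had 6.22 and 6.37 in knockout replicates 1 and 2, 6.13 and 6.34 in replicates 3 and 4, and 6.98, 6.85 and 6.81 in wild type, alike in both pairs and dim, a difference of -0.61 (SE 0.08, adjusted p = 0.00130). Cenpm, Cenpu and Cenps, all parts of the inner kinetochore, fell by 0.54, 0.43 and 0.22 on the log2 scale (adjusted p = 0.0454, 0.0417 and 0.0417). Of these, Cenpu and Cenps were dim. Cenpo, of the same network, rose by 0.48 (SE 0.15, adjusted p = 0.0367), at 7.43 and 7.21 in knockout replicates 1 and 2, 6.93 and 6.81 in replicates 3 and 4, and 6.69, 6.56 and 6.59 in wild type, so here the first pair was the higher. Cenpx, which also works in DNA repair, differed by -0.16 (SE 0.08, adjusted p = 0.105) in replicates 1 and 2 and by -0.67 (SE 0.06, adjusted p = 2.18e-04) in replicates 3 and 4, the reverse order of most genes.

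Of the 8 genes of condensin, Top2a and Mki67, 6 were lower in replicates 1 and 2 (75%, against 34.1% of all genes). The list median there was -0.85. In replicates 3 and 4, 4 fell and 2 rose (50% and 25%, against 29.3% and 27.7% of all genes). The median there was -0.05. Ncapg2 and Ncapd2, whose promoters are printed above, are condensin subunits. Ncapg2 had 6.94 and 6.87 in knockout replicates 1 and 2, 7.80 and 7.67 in replicates 3 and 4, and 8.08, 8.04 and 8.04 in wild type, and fell in the pooled fit by 0.74 on the log2 scale (SE 0.24, adjusted p = 0.0452). Ncapd2 stood at 6.47 and 6.26 in knockout replicates 1 and 2, 7.10 and 7.04 in replicates 3 and 4, and 7.37, 7.36 and 7.41 in wild type, a difference of -0.66 (SE 0.21, adjusted p = 0.0397). Neither showed overlap between knockout and wild type. Top2a, topoisomerase II, measured 9.31 and 9.33 in knockout replicates 1 and 2, 9.99 and 9.93 in replicates 3 and 4, and 10.33, 10.23 and 10.24 in wild type, and fell by 0.62 on the log2 scale (SE 0.19, adjusted p = 0.0351). Mki67, which coats mitotic chromosomes and is the usual marker of cycling cells, had 9.20 and 9.08 in knockout replicates 1 and 2, 10.05 and 10.07 in replicates 3 and 4, and 10.18, 10.28 and 10.30 in wild type. It was 2.17-fold lower in the first pair and 1.14-fold lower in the second (adjusted p = 2.36e-05 and 0.0297), and did not pass when pooled (adjusted p = 0.0877). Ncaph and Ncaph2, also condensin subunits, did not pass, at -0.17 and -0.04 in the first pair (adjusted p = 0.0584 and 0.603), and rose by 0.19 and 0.24 in the second.

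Among the 12 genes of the mitotic kinesin list, which includes Tpx2, 9 fell and 1 rose in replicates 1 and 2 (75% and 8.33%, against 34.1% of all genes each way). In replicates 3 and 4, 2 fell and 7 rose (16.7% and 58.3%, against 29.3% and 27.7% of all genes). Kif11, which pushes the spindle poles apart, had the largest fall of the 59 division genes in the first pair, with a log2 signal of 5.60 and 5.61 in knockout replicates 1 and 2, 7.01 and 6.84 in replicates 3 and 4, and 7.44, 7.53 and 7.42 in wild type. It was 3.63-fold lower in replicates 1 and 2 and 1.46-fold lower in replicates 3 and 4, and fell when pooled, with a difference of -1.20 (SE 0.38, adjusted p = 0.0389). Its other 2 probe sets, both dim, had pooled differences of -0.75 and -0.54, which also passed. Kif20a, a kinesin of the central spindle and cytokinesis, stood at 6.31 and 6.13 in knockout replicates 1 and 2, 7.37 and 7.32 in replicates 3 and 4, and 7.66, 7.57 and 7.42 in wild type, with -1.33 (SE 0.09, adjusted p = 4.28e-05) and -0.20 (SE 0.08, adjusted p = 0.0672). Kif18b, which shortens astral microtubules, fell by 0.56 on the log2 scale (SE 0.13, adjusted p = 0.0131) when pooled and kept its call without any single array.

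Other kinesins of division went opposite ways in the pairs. Kif23, of the central spindle, measured 8.39 and 8.36 in knockout replicates 1 and 2, 9.11 and 9.09 in replicates 3 and 4, and 9.01, 8.84 and 8.81 in wild type, with -0.51 (SE 0.07, adjusted p = 0.00105) in the first pair and 0.21 (SE 0.07, adjusted p = 0.0445) in the second. Kif4, Kif20b and Kif22, of chromosome arms and the late spindle, did the same, with falls of 0.34 to 0.67 and rises of 0.20 to 0.29 on the log2 scale. Of these, Kif4 and Kif20b were dim. Kif18a, dim and known to damp chromosome movements, was high in replicates 3 and 4, at 6.55 and 6.52 in knockout replicates 1 and 2, 7.04 and 7.06 in replicates 3 and 4, and 6.19, 6.43 and 6.42 in wild type, a difference of 0.71 (SE 0.08, adjusted p = 6.58e-04). Tpx2, the activator of Aurka on the spindle, also rose there by 0.43 (SE 0.06, adjusted p = 0.00120). A dim Tpx2 probe set stood at -0.63 there and at -2.91 in replicates 1 and 2. Kif14, a kinesin of cytokinesis, rose when pooled, a difference of 0.80 (SE 0.12, adjusted p = 0.00167), but its signal of 2.55 ± 0.16 in knockout and 1.75 ± 0.17 in wild type (SD, n = 4 and 3) lay among the lowest 5% of genes. No detection calls were used here, so such low values may be background.

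Of the 16 other kinesins, 8 fell and 4 rose in replicates 1 and 2 (50% and 25%, against 34.1% of all genes each way). In replicates 3 and 4, 4 fell and 6 rose (25% and 37.5%, against 29.3% and 27.7% of all genes). The pooled fit had 3 lower and 3 higher (18.8% each, against 21.6% and 21.5% of all genes). Kif1c, a carrier of vesicles and of integrins in macrophages and other cells, had 6.75 and 6.71 in knockout replicates 1 and 2, 7.25 and 7.20 in replicates 3 and 4, and 8.12, 8.01 and 8.05 in wild type. All knockout arrays were below all wild-type arrays, and the difference was -1.08 (SE 0.15, adjusted p = 0.00150). Kif3c and Kif3a, motor subunits of kinesin-2, went up. Kif3c measured 8.06 and 8.08 in knockout replicates 1 and 2, 7.58 and 7.56 in replicates 3 and 4, and 6.92, 6.87 and 6.83 in wild type, a difference of 0.95 (SE 0.15, adjusted p = 0.00280), without overlap. A second, dim Kif3c probe set had a pooled difference of 0.01, which did not pass (limma adjusted p = 0.977). It stood at -0.27 in replicates 1 and 2 and 0.28 in replicates 3 and 4. Kif1c and Kif3c were the only 2 of the 75 genes that also passed with the pairs of arrays treated as random blocks (adjusted p = 0.0176 and 0.0275, against 9.04% of all genes).

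Kif3a stood at 8.15 and 8.10 in knockout replicates 1 and 2, 7.54 and 7.54 in replicates 3 and 4, and 7.10, 7.01 and 6.94 in wild type, and rose by 0.82 (SE 0.18, adjusted p = 0.00953), but its probe sets disagreed and the mean over all 4 gave -0.18, which did not pass (adjusted p = 0.112). Kif21b, a motor that limits microtubule growth, rose by 0.36 (SE 0.07, adjusted p = 0.00525), and Kif1b, a carrier of mitochondria and synaptic vesicle precursors, fell by 0.49 on the log2 scale (SE 0.14, adjusted p = 0.0287), but 1 of its 7 probe sets rose by 2.74 and their mean gave -0.13, which did not pass (adjusted p = 0.186). Kif5c, a kinesin-1 heavy chain known from neurons, fell by 0.54 on the log2 scale (SE 0.07, adjusted p = 8.68e-04), but its knockout signal lay among the lowest 5% of genes. Kif5b, the widely expressed heavy chain, was bright, at 9.10 and 9.02 in knockout replicates 1 and 2, 9.20 and 9.30 in replicates 3 and 4, and 9.02, 9.08 and 9.04 in wild type. It rose in replicates 3 and 4 by 0.20 (SE 0.05, adjusted p = 0.0193), while the difference of 0.01 in replicates 1 and 2 did not pass. Its other probe sets stood between -0.54 and 0.74 in the first pair and between 0.23 and 0.48 in the second. Those at both ends of the first range were dim. Kif21a, a relative of Kif21b, was far apart between the pairs, at 3.10 and 3.13 in knockout replicates 1 and 2, 5.41 and 5.07 in replicates 3 and 4, and 4.79, 4.88 and 4.55 in wild type, and its signal was dim throughout.

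Genes that had 2 or more probe sets numbered 39, which left 67 probe sets beside the chosen ones. Over these, the median difference from wild type was -0.30 in replicates 1 and 2 and 0.05 in replicates 3 and 4. Of the 67, 53 had the sign of the chosen probe set in the first pair, as did 53 in the second. Only 15 of the 67 lay over the 40th percentile of genes, with medians of -0.27 and 0.22 in the pairs. Of these 15, 13 had the sign of the chosen probe set in the first pair. In the pooled fit 6 of the 67, in the genes Cenpw, Kif1b, Kif2a, Kif3a and Ncaph2, passed with the opposite sign. Dim probe sets of Bub1 and Tpx2 stood at -0.37 and -0.63 in replicates 3 and 4, where the chosen ones rose. The chosen probe sets of 14 genes, among them Incenp, Aurkb and Cdc20, are of a type that can also match other transcripts. The second probe sets of Incenp and Cdc20 gave similar falls in the first pair, -0.86 and -1.06, against -0.90 and -1.10. For Ccna2 the fall was -0.58 on the second probe set, against -1.68 on the chosen one, so its size depends on the probe set.

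**Figure D3:**
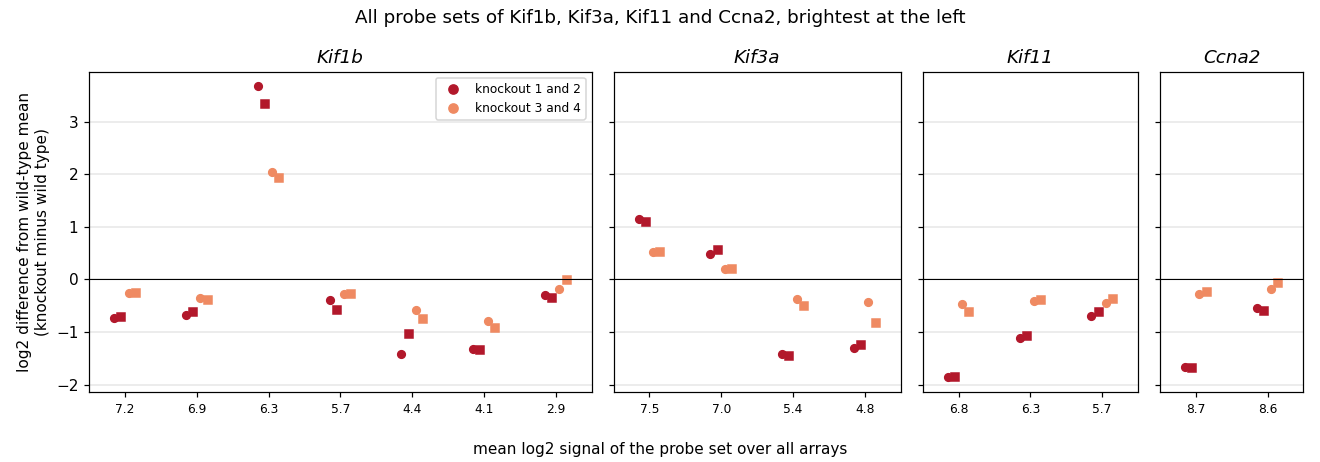
Log2 difference from the wild-type mean (vertical axis, knockout minus wild type) for each probe set of Kif1b, Kif3a, Kif11 and Ccna2, ordered by mean log2 signal (horizontal axis), in knockout replicates 1 and 2 (dark red) and 3 and 4 (orange); circles mark the odd-numbered and squares the even-numbered replicate. All 3 Kif11 and both Ccna2 probe sets lie at or below 0 in every array, the third Kif1b probe set lies at 3.67, 3.33, 2.04 and 1.93, and the 4 of Kif3a are split.

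Genes that work beside these were grouped in lists. Called differences below come from the pooled fit unless a pair is named. Of 39 other spindle, checkpoint and cytokinesis genes, 29 fell and 3 rose in replicates 1 and 2 (74.4% and 7.69%, median -0.54), against 34.1% of all genes each way, while 5 fell and 17 rose in replicates 3 and 4 (12.8% and 43.6%, median 0.15), against 29.3% and 27.7% of all genes. In the pooled fit 3 fell and 3 rose, 15.4% together, against 43.1% of all genes. Mad2l1, the checkpoint inhibitor of Cdc20, fell by 0.88 on the log2 scale (SE 0.17, adjusted p = 0.00562), with 9.08 and 9.27 in knockout replicates 1 and 2, 9.76 and 9.69 in replicates 3 and 4, and 10.34, 10.36 and 10.30 in wild type. Ska2, of a complex that steadies kinetochore attachments, fell by 0.46 on the log2 scale (SE 0.13, adjusted p = 0.0273). Zwilch, which helps load dynein on kinetochores, rose by 0.55 (SE 0.15, adjusted p = 0.0218). Of 17 cohesin and separase genes 11 fell and 3 rose in the first pair (64.7% and 17.6%, median -0.24), and 4 fell and 5 rose in the second (23.5% and 29.4%, median 0.11). Wapl, which releases cohesin, rose in the pooled fit by 0.60 (SE 0.20, adjusted p = 0.0445).

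Of 18 genes of the anaphase promoting complex and its regulators, 8 fell and 4 rose in replicates 1 and 2, and 7 fell and 5 rose in replicates 3 and 4, with a median of -0.05 in each pair. The share called was 66.7% in each pair, against 68.1% of all genes in the first and 57% in the second. Fbxo5, also called Emi1, an inhibitor of the complex, fell by 1.07 on the log2 scale (SE 0.29, adjusted p = 0.0216), with 6.64 and 6.43 in knockout replicates 1 and 2, 7.50 and 7.52 in replicates 3 and 4, and 8.13, 8.11 and 8.02 in wild type. The subunit genes Anapc11 and Anapc13 fell in both pairs (-0.95 and -1.21, and -0.74 and -0.71). The subunit genes Anapc1 and Anapc7 rose in the pooled fit by 0.61 and 0.42 on the log2 scale (adjusted p = 6.81e-04 and 0.0406), although Anapc1 turned to -0.51 with the mean of its probe sets. Of 13 genes of the Cdk1 switch, 5 fell and 4 rose in the first pair (38.5% and 30.8%, median -0.0042), and 3 fell and 5 rose in the second (23.1% and 38.5%, median 0.12). The shares of all genes were 34.1% each way in the first pair, and 29.3% lower and 27.7% higher in the second. Wee1, the kinase that holds Cdk1 inactive, fell by 1.17 on the log2 scale (SE 0.34, adjusted p = 0.0290), with 6.37 and 6.38 in knockout replicates 1 and 2, 7.61 and 7.49 in replicates 3 and 4, and 8.09, 8.12 and 8.17 in wild type, and Cdc25b, a phosphatase that activates Cdk1, fell by 0.90 on the log2 scale (SE 0.19, adjusted p = 0.00861).

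Among 23 MuvB, B-Myb, FoxM1 and E2F genes, 13 fell and 2 rose in replicates 1 and 2 (56.5% and 8.7%, median -0.28), and 6 fell and 4 rose in replicates 3 and 4 (26.1% and 17.4%, median -0.09). For this list and those below, the shares of all genes were 34.1% each way in the first pair. In the second pair they were 29.3% lower and 27.7% higher. The pocket protein genes Rb1 and Rbl1, whose products restrain E2F, fell when pooled, with differences of -1.02 (SE 0.28, adjusted p = 0.0226) and -1.02 (SE 0.24, adjusted p = 0.0121). Rb1 had 6.09 and 6.17 in knockout replicates 1 and 2, 7.09 and 7.09 in replicates 3 and 4, and 7.68, 7.57 and 7.63 in wild type, lower in both pairs than in any wild-type array. The pooled calls of Zwilch, Wapl, Anapc7, Fbxo5, Wee1, Rb1, Gadd45b and Ccng1 were each lost without wild-type replicate 1, 2 or 3, that of Ska2 without wild-type replicate 1 or 2 or knockout replicate 2, and those of Wapl, Anapc7, Wee1 and Ccng1 also without knockout replicate 1 or 2. Of 13 Cdk inhibitor and p53 arrest genes, 7 rose and 5 fell in the first pair (53.8% and 38.5%, median 0.29), and 4 rose and 4 fell in the second (30.8% each, median -0.02). Gadd45b, a stress-induced growth arrest gene, rose by 1.86 (SE 0.53, adjusted p = 0.0260), with 9.63 and 9.60 in knockout replicates 1 and 2, 7.76 and 7.79 in replicates 3 and 4, and 6.94, 6.81 and 6.75 in wild type. Ccng1, a p53 target, fell by 1.16 on the log2 scale (SE 0.34, adjusted p = 0.0289), and the inhibitor gene Cdkn2c, which acts on Cdk4 and Cdk6, fell by 0.63 on the log2 scale (SE 0.13, adjusted p = 0.00665). Sesn1 of this list also fell, by 0.64 (adjusted p = 0.00242). Mdm2 and Btg1 rose by 0.53 and 0.44 (adjusted p = 4.56e-04 and 0.00762). In all, 4 of the 13 rose and 3 fell in the pooled fit (30.8% and 23.1%, against 21.5% and 21.6% of all genes). Of 45 DNA replication genes, 20 fell and 11 rose in the first pair (44.4% and 24.4%, median -0.14), and 5 fell and 17 rose in the second (11.1% and 37.8%, median 0.09).

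**Figure D4:**
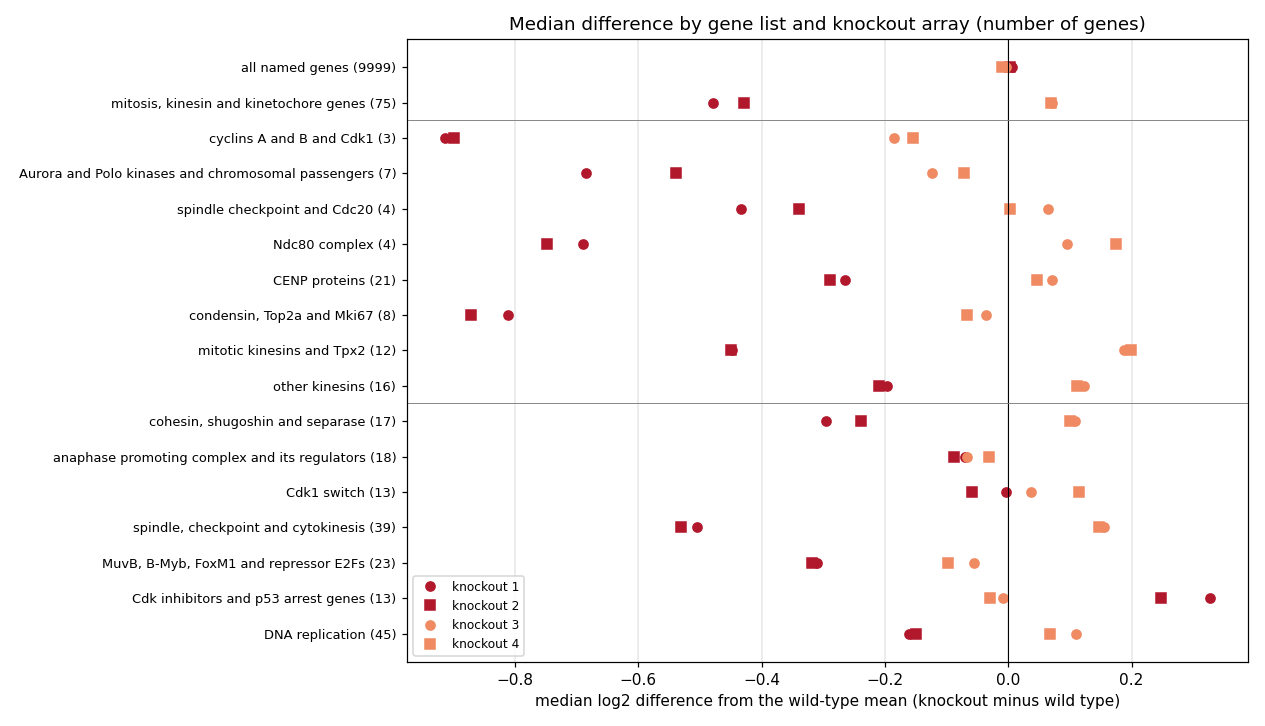
Median over the genes of each list of the log2 difference from the wild-type mean (horizontal axis, knockout minus wild type) in knockout replicates 1 and 2 (dark red) and 3 and 4 (orange), with the number of genes in brackets. All named genes lie at about 0 in each array, the 75 genes at -0.48, -0.43, 0.07 and 0.07, and the anaphase promoting complex close to 0.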

How the data were processed

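RNA was measured on 7 Affymetrix arrays, 4 knockout and 3 wild type, grouped by title. The authors deposited RMA-normalized signal, per the submitters' processing notes, as intensity on a linear scale (median 93.8 to 101 per array), and log2 was taken here. Of the 19431 probe sets with deposited signal, 17335 had 1 symbol in the platform annotation, 532 several and 1564 none. Only those with 1 symbol were used. RMA normally equalizes the distribution of signal between arrays, which would hide a global change of RNA content. Arrays have no read depth, and their number limits precision.

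Knockout and wild type were compared by limma 3.58.1 in R 4.3.3 (moderated two-sided tests, 2 groups, Benjamini-Hochberg over 9999 genes), with 5 residual degrees of freedom. The genes and lists were chosen with earlier results of these data known. All 75 genes could be named, and of each further list up to 5 genes past the threshold by size and the brightest; promoters were those of division genes past the threshold in the pooled fit with a CHR match before the start, up to 6 by size of difference and none on chromosome 18, leaving out the dim Kif14. "Dim" means a mean under the 40th percentile of the 9999 genes. Alternatives covered normalization, filters, the prior, array weights, probe set choice, a test against a fold of 1.2, blocks and arrays left out. Figures used matplotlib 3.10.9.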

Additional observations from a re-analysis of the deposited data

How the results depend on the processing

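The pooled counts of 6 higher and 13 lower of the 75 genes stayed within 1.5 times under quantile normalization, median centring, leaving out dim genes, an intensity trend with a robust prior and the mean of probe sets. With array weights 29 passed, 10 of them higher. Against a fold of 1.2, 6 passed (3 higher, 3 lower), and with each knockout pair as a random block 2 passed (1 higher, 1 lower). Leaving out knockout replicates 1 and 2 gave 46 (27 higher) and turned the median to 0.0919, and leaving out replicates 3 and 4 gave 57 (50 lower) with a median of -0.50. Leaving out 1 array gave 8 to 25 in all, 4 to 8 higher and 4 to 19 lower, with a median between -0.29 and -0.09. Scalings added after seeing the data kept the contrast of the pairs: without replicates 1 and 2, quantile normalization gave 51 (31 higher, 20 lower, median 0.11) and median centring 47 (27 and 20, median 0.0808), and without replicates 3 and 4 they gave 62 (54 lower, median -0.53) and 63 (56 lower, median -0.54).

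Replicate numbers did not pair the arrays: deviations of equal numbers correlated at 0.124, -0.0902 and 0.106, and wild-type replicates 1 and 3, but not 2, correlated best with their own number. With the replicate block 23 passed (6 higher, 17 lower). The mean of probe sets reversed Kif3a (-0.18), Anapc1 (-0.51), Racgap1 (-0.10), Pold3 (-0.13) and Orc4 (-0.0584). No pooled call of the 75 genes turned sign otherwise. The cause of these shifts was not tested. Signal over background limits the dim genes, 20 of the 75.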

Other observations

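The probe sets of 5 genes moved apart, with at least 1 past the threshold against the sign of the chosen one, a pattern noticed in the data and chosen after its values were seen. For Kif1b, 6 of 7 probe sets were lower in knockout, by -0.21 to -1.09 in the pooled fit, of which 5 passed. The remaining one had a log2 signal of 8.42 and 8.08 in knockout replicates 1 and 2, 6.79 and 6.69 in replicates 3 and 4, and 4.84, 4.76 and 4.65 in wild type, a rise of 2.74 (SE 0.44, limma adjusted p = 0.00317 over all probe sets with 1 symbol). For Kif3a the 2 brighter probe sets rose, by 0.82 and 0.36, and the 2 dimmer ones fell, with differences of -0.93 and -0.95 (adjusted p from 0.0111 to 0.0383). For Kif2a the 2 brighter probe sets stood at -0.37 and -0.47, which did not pass, and a dimmer one rose by 0.49 (adjusted p = 0.0055). For Cenpw and Ncaph2 the dim probe sets fell, with differences of -2.03 and -0.39 (adjusted p = 0.00632 and 0.0462), while the chosen ones stood at 0.36 and 0.10 and did not pass. Which transcripts these probe sets match was not analysed here.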
